A study of Mus musculus with 6 samples.

Results

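The pigment genes of melanocytes and the gene of Kit ligand are described here in newborn mouse epidermis, 9 of the 12894 genes in the deposited table. They were chosen by name and not by a threshold on values, with earlier results of these data known. 8 of them are melanocyte genes, Dct, Tyrp1, Tyr, Pmel, Mlana, Mitf, Sox10 and Kit, and the other is Kitl, which encodes the Kit ligand. All 9 were matched by symbol, and each had more than 1 normalized count in all 6 libraries. Bulk RNA-seq had been made from epidermis, separated from the dermis, of C57BL/6 mice at postnatal day 0. The 3 libraries labelled knockout carried the genotype Hnrnpu knockout, made with loxP and Cre. The 3 controls were 1 library labelled Wild type and 2 labelled Heterogenous, read here as heterozygous. Neither the Cre driver nor the deleted part of Hnrnpu is given in the labels, so which epidermal cells carry the deletion is not stated. The labels do not say whether each library came from 1 animal alone, and the p-values measure the spread between these libraries.

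Melanocytes arise from the neural crest, enter the skin as melanoblasts and, in the mouse, move through the epidermis into the hair follicles around birth. Mitf is the transcription factor that sets their identity and switches on pigment genes through the E-box and its longer form, the M-box, while Sox10 acts upstream of Mitf. Keratinocytes and dermal cells supply Kit ligand, which binds the receptor Kit on melanoblasts and is needed for their survival and migration. Pigment is made in melanosomes, where Tyr, Dct and Tyrp1 carry out steps of eumelanin synthesis, Pmel forms the fibrils on which melanin settles and Mlana takes part in Pmel maturation.

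The promoters of the 3 melanin enzymes are printed because these genes share a motif that the windows of Mitf, Kit and Kitl did not hold. Windows from 250 bases before to 50 bases after a start site, from RefSeq on GRCm38.p6, were matched for 6 of the 9 members, in 9 windows. No window was matched for Pmel, Mlana or Sox10, so these 3 were not searched. The M-box core TCATGTG was searched on both strands, and it contains the shorter core CATGTG, which 14.2% of all windows held. It was found in 3 of the 6 genes with a window, Tyr, Tyrp1 and Dct, and in 3.77% of all 32851 windows (4.31% of 27025 genes). Since Mitf is known to act on pigment genes through the M-box, these shares are a description and not a test. The 250 bases before the start follow, 5′ to 3′ on the strand of the gene, with the core or its reverse complement in capitals. They lie at chr7:87493513-87493762 on the minus strand for Tyr, chr4:80833963-80834212 on the plus strand for Tyrp1 and chr14:118052247-118052496 on the minus strand for Dct.
Tyr: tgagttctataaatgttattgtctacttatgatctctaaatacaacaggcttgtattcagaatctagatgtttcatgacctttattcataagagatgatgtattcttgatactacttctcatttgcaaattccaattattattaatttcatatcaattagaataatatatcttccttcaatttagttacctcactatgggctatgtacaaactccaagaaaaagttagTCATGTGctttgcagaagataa
Tyrp1: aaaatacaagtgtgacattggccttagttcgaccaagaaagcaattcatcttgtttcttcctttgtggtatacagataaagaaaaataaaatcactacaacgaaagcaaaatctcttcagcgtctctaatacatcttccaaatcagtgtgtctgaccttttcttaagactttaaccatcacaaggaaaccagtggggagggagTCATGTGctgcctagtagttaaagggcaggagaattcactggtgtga
Dct: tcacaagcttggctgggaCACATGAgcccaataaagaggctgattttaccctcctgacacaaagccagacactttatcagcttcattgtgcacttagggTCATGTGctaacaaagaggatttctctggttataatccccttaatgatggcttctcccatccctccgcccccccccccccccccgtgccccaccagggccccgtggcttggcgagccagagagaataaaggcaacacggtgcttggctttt
The core began 22 bases before the start in Tyr and 47 in Tyrp1. Dct held it 151 bases before the start, and once more on the other strand 232 bases before it. The bases around it were, on the strand of the core, ttagTCATGTGcttt in Tyr, ggagTCATGTGctgc in Tyrp1, and agggTCATGTGctaa and gggcTCATGTGtccc in Dct. The E-box CACGTG, searched likewise, occurred in no window of a member and in 7.15% of all windows. The windows of Mitf, Kit and Kitl held no M-box core. These matches are of letters only and show no binding.

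**Figure D1:**
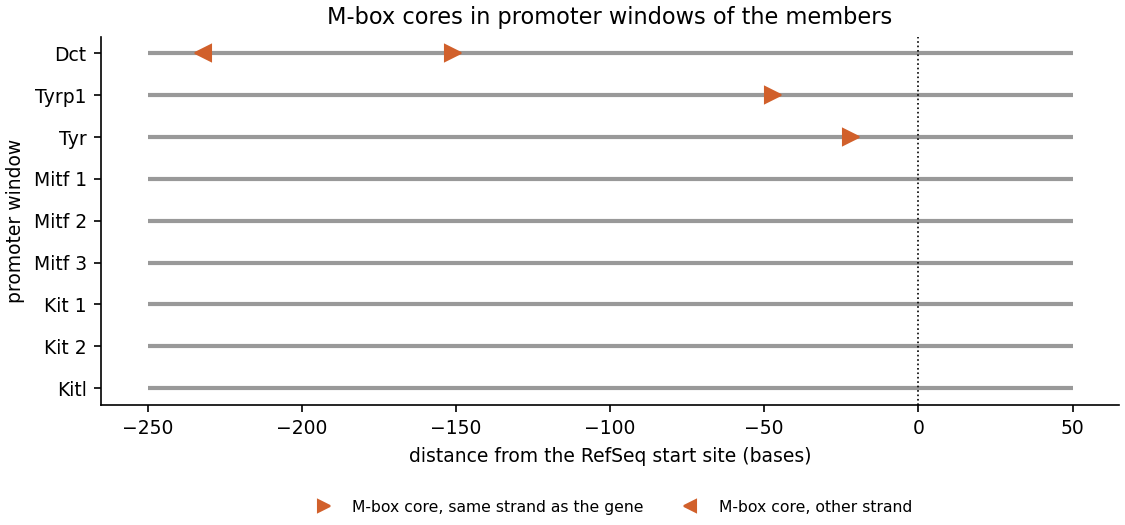
Positions of the M-box core in the promoter windows of the members (x axis, distance from the RefSeq start site in bases; y axis, window). Triangles point along the strand of the match. The core lies 22, 47, and 151 and 232 bases before the start in Tyr, Tyrp1 and Dct, and no triangle falls in the windows of Mitf, Kit and Kitl.

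The libraries were examined first. Hnrnpu, the targeted gene, had 1565, 1342 and 1036 normalized counts in knockout-labelled libraries 1 to 3, against 1450.3, 1318 and 1159.9 in controls 1 to 3, a log2 change of -0.01 ± 0.20 (SE, limma adjusted p = 0.976). Its level therefore does not check the genotype labels, and every direction below is between libraries labelled knockout and control. Normalized counts summed to 8191409, 10987666 and 8469679 in the libraries labelled knockout, against 6850663, 7328810 and 7453638 in controls. Among the 12872 genes tested across both groups, knockout-labelled libraries had higher values in 2279 and lower ones in 2049 (limma on log2(value + 1), Benjamini-Hochberg adjusted p under 0.05), 17.7% and 15.9% of those tested. The median log2 change was -0.02, and it was -0.36 when all libraries were set to the same total, with 1440 genes higher and 3065 lower (11.2% and 23.8%). Xist had 1.87, 5656 and 4758 normalized counts in libraries labelled knockout 1 to 3, against 0, 0.885 and 3.27 in controls, and the labels give no sex. Ddx3y, on the Y chromosome, had 323, 0 and 0 normalized counts, against 574, 646 and 544 in controls, so the transcripts present in knockout 1 were those of the controls, with Ddx3y at a lower level.

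All 8 melanocyte genes were higher in the libraries labelled knockout, by a median of 2.58 on the log2 scale, and so was Kitl. In each of the 9 genes the lowest knockout value lay above the highest control value, a pattern that 25.8% of all tested genes showed. This order alone makes each of the 9 higher in the knockout library of all 3 pairs of adjacent animal numbers. The pairs therefore add no separate result, and 34.6% of the genes tested were higher in all 3. The changes of the 9 lay between the 91.8 and 99.1 percentiles of all changes. With 3 libraries a group, an exact two-sided permutation test of a single gene cannot go below p = 0.1, which each of the 9 reached. In bulk epidermis, fewer or more melanocytes and less or more RNA in each of them cannot be told apart.

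**Figure D2:**
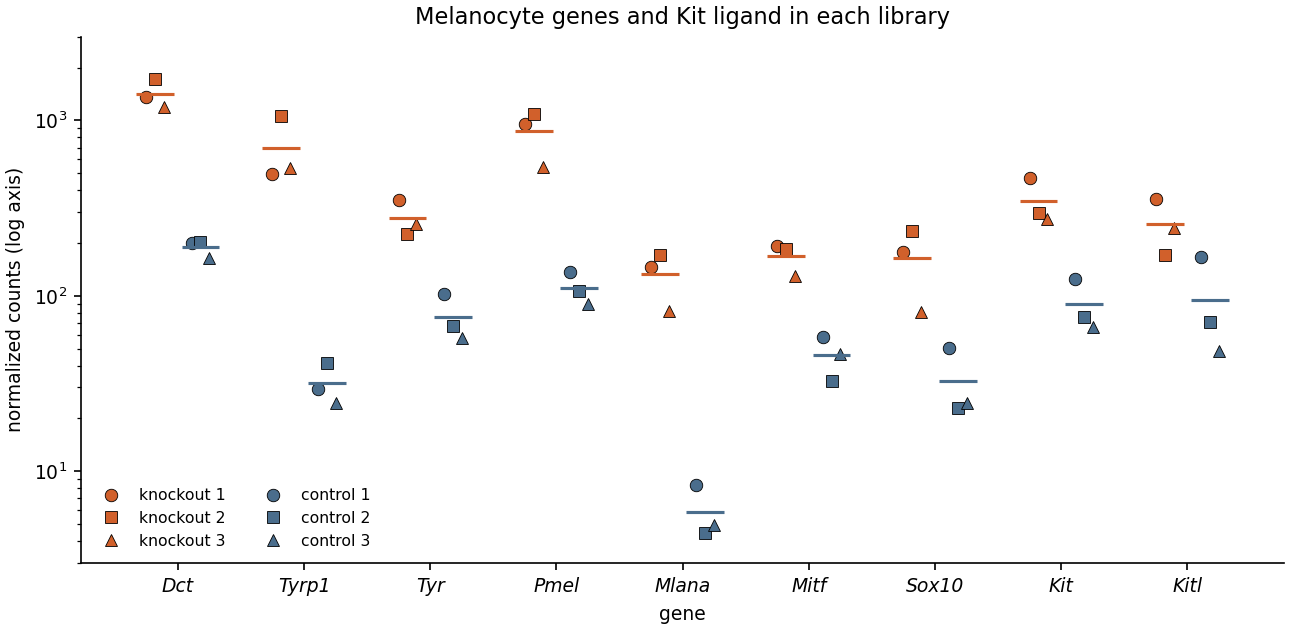
Normalized counts (y axis, log scale) of the 8 melanocyte genes and Kitl (x axis) in each of the 3 libraries labelled knockout and the 3 controls, with bars at the group means. The knockout points stand above all control points in every gene, with the narrowest gap in Kitl, where 172 in knockout 2 lies next to 166 in control 1.

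The enzymes of melanin synthesis differed in the size of their change. Dct, dopachrome tautomerase (ENSMUSG00000022129, chromosome 14), had 1359.7, 1713 and 1194 normalized counts in knockout-labelled libraries 1 to 3, against 201, 202 and 164 in controls 1 to 3. It was the member with the most counts in both groups, and its 3 controls lay close together. Dct rose by 2.90 ± 0.20 on the log2 scale (SE, 95% interval 2.44 to 3.35, limma adjusted p = 8.04e-05), a fold of 7.44. Tyrp1, tyrosinase-related protein 1 (ENSMUSG00000005994, chromosome 4), had 495, 1062 and 539 normalized counts in knockout-labelled libraries, against 29.4, 41.6 and 24.5 in controls. Knockout 2 stood above the other 2 knockout libraries, and the lowest of the 3 was 11.9 times the highest control. Its change, 4.36 ± 0.34 (SE, 95% interval 3.59 to 5.12, limma adjusted p = 1.19e-04), was the largest of the 9, a fold of 20.5, and rested on 39, 47 and 30 reads in the controls. Tyr, tyrosinase, the rate-limiting enzyme (ENSMUSG00000004651, chromosome 7), had 350.4, 226 and 257 normalized counts in knockout-labelled libraries, against 102, 67.3 and 57.2 in controls. Knockout 1 was highest here, and so was control 1 among the controls. Tyr rose by 1.89 ± 0.28 (SE, 95% interval 1.25 to 2.52, limma adjusted p = 0.00202), a fold of 3.69, so the 95% intervals of Tyr and Tyrp1 did not meet.

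The genes of both structural melanosome proteins also rose. Pmel, the fibril protein of the melanosome (ENSMUSG00000025359, chromosome 10), had 957, 1092 and 546 normalized counts in knockout-labelled libraries, against 137, 107 and 89.9 in controls. Its 3 controls lay near each other, and knockout 3 was the lowest knockout library. Pmel rose by 2.91 ± 0.29 (SE, 95% interval 2.24 to 3.57, limma adjusted p = 3.50e-04), close to Dct in size. Mlana, the melanosomal membrane protein also called MART-1 (ENSMUSG00000024806, chromosome 19), had 147, 170.1 and 82.1 normalized counts in knockout-labelled libraries, against 8.31, 4.43 and 4.90 in controls. The controls were near the bottom of the measured range, at 11, 5 and 6 reads, against 157, 100 and 74 reads in the libraries labelled knockout. Mlana rose by 4.26 ± 0.42 (SE, 95% interval 3.31 to 5.21, limma adjusted p = 3.24e-04). With so few control reads the fold depends on the pseudocount, and the change was 3.62 with a pseudocount of 5.

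The lineage regulators and the receptor had smaller changes than 4 of the 5 pigment genes. Mitf, the melanocyte master regulator (ENSMUSG00000035158, chromosome 6), had 192, 185 and 129.7 normalized counts in knockout-labelled libraries, against 58.1, 32.8 and 46.6 in controls. Mitf is also transcribed from other promoters in other cell types, and these gene-level values do not separate its isoforms. It rose by 1.88 ± 0.29 (SE, 95% interval 1.21 to 2.54, limma adjusted p = 0.00233). Sox10, a neural crest factor also used by Schwann cells (ENSMUSG00000033006, chromosome 15), had 178, 233 and 80.9 normalized counts in knockout-labelled libraries, against 50.6, 23.0 and 24.5 in controls. Its knockout libraries were spread widely, with knockout 3 nearest to the controls, and it rose by 2.26 ± 0.45 (SE, 95% interval 1.22 to 3.29, limma adjusted p = 0.00704). Kit, the receptor tyrosine kinase of melanoblasts and mast cells (ENSMUSG00000005672, chromosome 5), had 471, 296 and 275 normalized counts in knockout-labelled libraries, against 125, 76.2 and 66.2 in controls. Kit rose by 1.96 ± 0.31 (SE, 95% interval 1.26 to 2.66, limma adjusted p = 0.00249), with knockout 1 and control 1 highest in their groups.

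Kitl, the ligand of Kit (ENSMUSG00000019966, chromosome 10), had 355, 172 and 245 normalized counts in knockout-labelled libraries 1 to 3, against 166, 70.8 and 48.2 in controls 1 to 3. Control 1, the library labelled Wild type, stood above both controls labelled Heterogenous, and knockout 2 was only 1.03 times that control. Kitl rose by 1.56 ± 0.45 (SE, 95% interval 0.53 to 2.59, limma adjusted p = 0.0296), a fold of 2.95 with a 95% interval of 1.44 to 6.02. Within pairs of adjacent animal numbers, the library labelled knockout had 2.14, 2.43 and 5.08 times the control. The call was lost without knockout 1 (adjusted p = 0.0881), knockout 3 (0.0514), control 2 (0.0909) or control 3 (0.0916), all from limma, and the log2 change without each library in turn ran from 1.18 to 2.06. It was also lost with equal library totals, where the change was 1.22 (limma adjusted p = 0.101). The 8 melanocyte genes, in contrast, passed in all 17 other settings, in which 10.2% to 22.9% of all tested genes were higher, and Kitl passed in 10 of them.

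**Figure D3:**
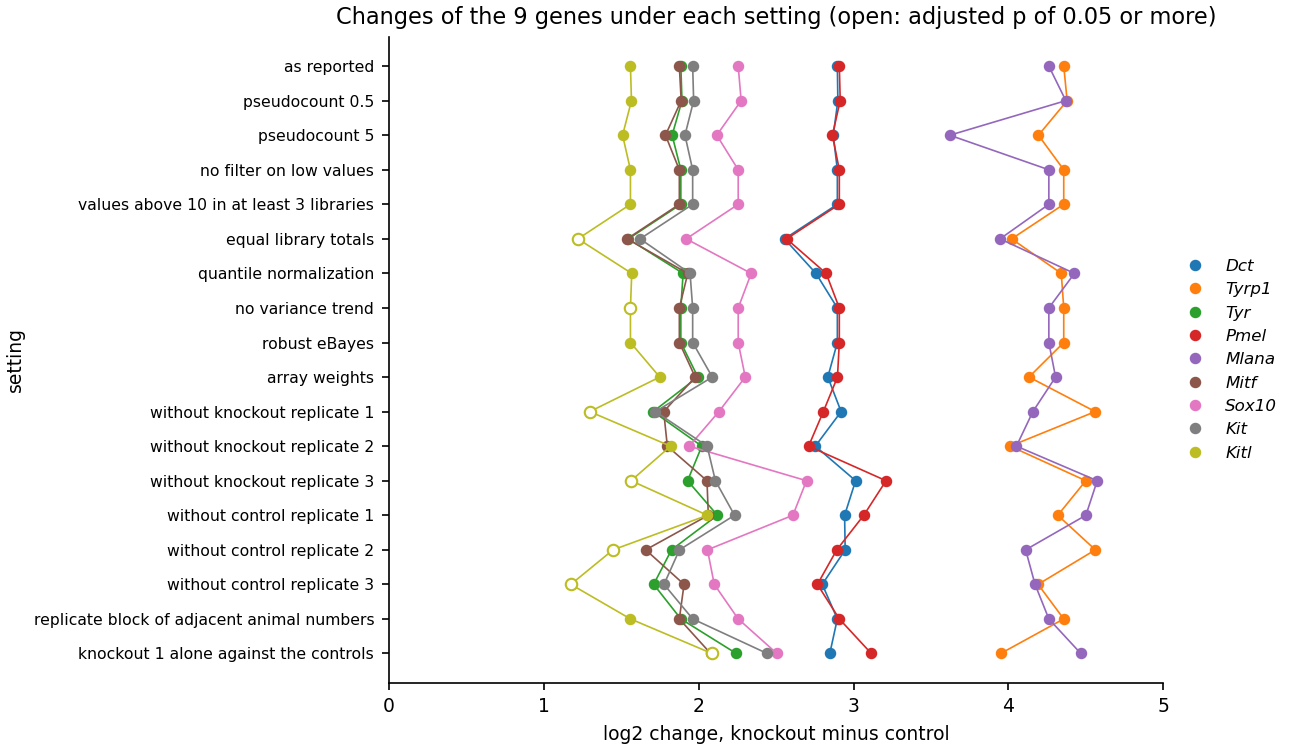
Log2 change, knockout minus control (x axis), of the 9 genes under the main setting and 17 others (y axis). Filled points have a limma adjusted p under 0.05 and open ones do not. Every point of the 8 melanocyte genes is filled, from 1.54 to 4.57, and 7 of those of Kitl are open.

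Knockout 1, which like the controls had Ddx3y and little Xist, was also set alone against the 3 of them, with the spread taken from the controls. This called 10.2% of tested genes higher. The 8 melanocyte genes passed there as well, with log2 changes of 2.08 (Mitf) to 4.47 (Mlana), while Kitl had a change of 2.09 and a limma adjusted p of 0.0582.

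Levels were also divided by merged exon length, which joins all annotated exons of a gene. This length can exceed that of the transcripts present, so the order between genes is approximate. Per kilobase of merged exon, Pmel had the highest mean level in the libraries labelled knockout, 377 normalized counts per kb. Tyrp1 at 247 and Dct at 241.3 came after it, and the ranges of these 3 overlapped. Mlana followed at 126, below the range of Dct, and its lowest library (77.6) lay just above the highest of Sox10 (76.4). Sox10 at 53.8, Kitl at 43.5, Tyr at 39.1, Kit at 39.0 and Mitf at 27.3 came next, each overlapping its neighbour. In controls the order was Pmel at 48.5 normalized counts per kb, Dct at 32.1, Kitl at 16.1, Tyrp1 at 11.3, Sox10 at 10.7, Tyr at 10.6, Kit at 10.01, Mitf at 7.40 and Mlana at 5.56. From Dct down, the ranges of neighbours in that order overlapped. In the libraries labelled knockout, 5 of the 9 members had a higher mean than Kitl, against 2 in controls, Pmel and Dct.

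The 8 melanocyte genes summed to 4150.2, 4978 and 3104 normalized counts in knockout-labelled libraries 1 to 3, against 711, 554 and 478 in controls 1 to 3. As a share of all normalized counts of a library these were 0.0507%, 0.0453% and 0.0366%, against 0.0104%, 0.00756% and 0.00642%. The make-up of that sum differed between the groups. Tyrp1 made up 16.9% ± 4.71 of it in the libraries labelled knockout and 5.59% ± 1.73 in controls (SD, n = 3 each), and Mlana 3.20% ± 0.484 and 0.997% ± 0.186. Tyr gave 7.09% ± 2.21 in the libraries labelled knockout and 12.8% ± 1.32 in controls, Mitf 4.17% ± 0.445 and 7.94% ± 1.93, and Kit 8.72% ± 2.70 and 15.1% ± 2.21. The groups did not overlap in these 5 shares. Those of Dct (35.2% ± 2.94 and 33.0% ± 4.26), Pmel (20.9% ± 2.90 and 19.1% ± 0.276) and Sox10 (3.86% ± 1.10 and 5.46% ± 1.51) did overlap.

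**Figure D4:**
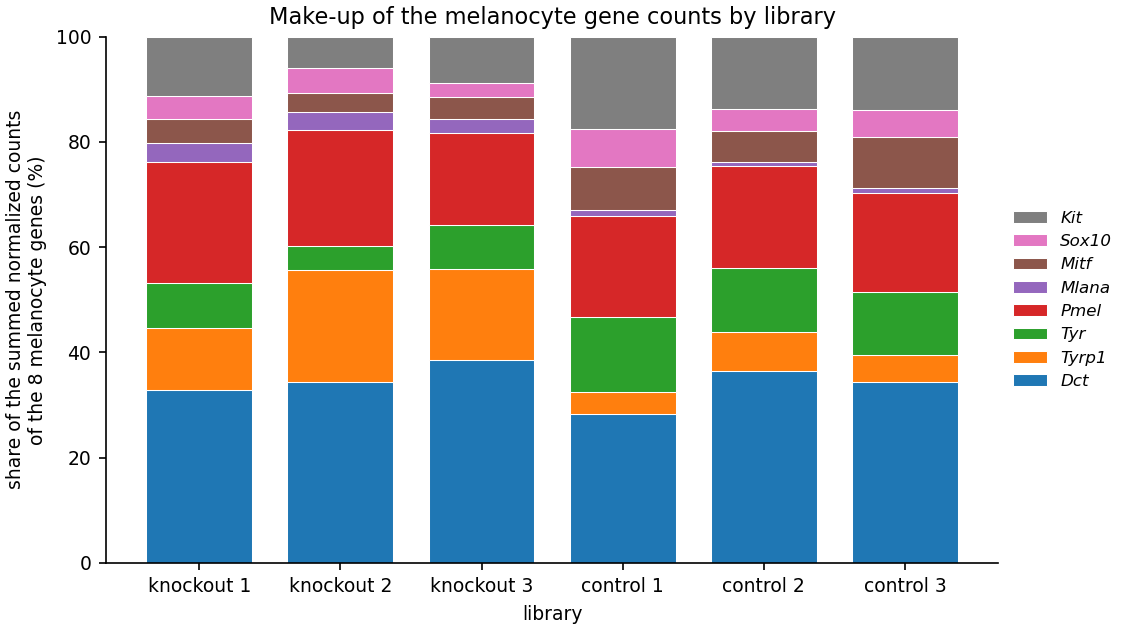
Share of each of the 8 melanocyte genes in their summed normalized counts (y axis, percent) in each library (x axis), with the libraries labelled knockout on the left. The Tyrp1 segment averages 16.9% in the knockout libraries and 5.59% in the controls, and the Kit, Tyr and Mitf segments are narrower in the knockout libraries.

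The 5 pigment genes (Dct, Tyrp1, Tyr, Pmel, Mlana) rose by a mean of 3.26 on the log2 scale and the 3 lineage genes (Mitf, Sox10, Kit) by 2.03. Within each library, the mean log2 value of the pigment genes minus that of the lineage genes was 1.0, 1.35 and 1.39 in the libraries labelled knockout, against -0.27, 0.36 and -0.04 in controls. All 3 knockout libraries lay above the controls, by a mean of 1.23 (exact two-sided permutation p = 0.1, the smallest this design allows), and the difference ran from 0.98 to 1.40 over the other settings. Tyrp1 stood at 1.41, 4.69 and 2.09 times Tyr in the libraries labelled knockout, against 0.289, 0.618 and 0.429 times in controls, all in normalized counts without length correction. Mlana stood at 0.766, 0.917 and 0.632 times Mitf in the libraries labelled knockout, against 0.143, 0.135 and 0.105 times in controls. Both ratios set a member with a large change over one with a small change, so their separation restates those changes. Their log2 differences, knockout minus control, were 2.501 and 2.59. The difference was smaller for Tyrp1 over Sox10 (2.11), Pmel over Mitf (1.02) and Dct over Tyr (1.002), where the groups did not overlap either. For the ligand and its receptor, whose changes were closer in size, the groups overlapped. Kitl was 0.754, 0.580 and 0.891 times Kit in the libraries labelled knockout, against 1.33, 0.930 and 0.728 times in controls. The exact two-sided permutation p was 0.3.

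The libraries were not ordered alike in all members. Knockout 2 was highest for Dct, Tyrp1, Pmel, Mlana and Sox10, 5 of the 8 melanocyte genes, and knockout 1 for Tyr, Mitf and Kit, and for Kitl. Knockout 3 was lowest in 6 of the 8. Among controls, control 1 was highest in 7 of the 9 genes. These orders are of normalized counts, and knockout 2 had the largest sum of them (10987666, against 8191409 in knockout 1). As a share of the sum of its own library, the 8 melanocyte genes together were highest in knockout 1, at 0.0507%, against 0.0453% in knockout 2. Measured as the root mean square distance between centred log2 values over the 6 libraries, Pmel (0.133) and Dct (0.215) lay nearest to the mean of the other melanocyte genes, and Tyrp1 (1.004) farthest.

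The same distance was taken to the tested genes outside the members, leaving out predicted and clone names. Most like Kitl among these were Susd4 (0.234), Lrrk2 (0.239), Mc1r (0.256), Phldb2 (0.265) and Slc1a4 (0.280). Mc1r, the melanocortin receptor of melanocytes, had 43.9, 17.01 and 23.3 normalized counts in knockout-labelled libraries, against 12.9, 5.40 and 5.72 in controls, a change of 1.68 ± 0.57 that did not pass (limma adjusted p = 0.0510). Nearest to the mean of the 8 melanocyte genes were Npy (0.138), which encodes neuropeptide Y, Slc7a1 (0.147), a cationic amino acid transporter, Lce1f (0.165) and Lce1h (0.185), both late cornified envelope genes of keratinocytes, and Nod2 (0.185), an innate immune receptor. Lce1f had 4577, 4752 and 4076 normalized counts in knockout-labelled libraries, against 784, 645 and 499 in controls, a rise of 2.82 ± 0.20 (SE, limma adjusted p = 9.61e-05).

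Further genes of pigment and the melanosome changed mostly in the same direction. Of 21 named, 17 were tested. Of the 17, 11 were higher and 1 was lower where the label was knockout, beside 17.7% and 15.9% of all tested genes. Their median log2 change was 1.70, against -0.02 for all genes tested, and 9 to 11 were higher in the other settings. Bace2, a protease that cuts Pmel, rose by 2.45 ± 0.31 (SE, limma adjusted p = 9.38e-04) and the cation channel gene Mcoln3 by 2.28 ± 0.36 (limma adjusted p = 0.00269). The carriers that load melanosomes onto actin did not move together. Mlph, the linker melanophilin, had 168, 163 and 44.4 normalized counts in knockout-labelled libraries, against 10.6, 6.20 and 3.27 in controls, a rise of 3.93 ± 0.61 (SE, limma adjusted p = 0.00233), or 4.56 without knockout 3. Rab27a, the small GTPase that Mlph binds and that other secretory cells use too, had 123, 81.7 and 134 normalized counts in knockout-labelled libraries, against 425, 607 and 611 in controls, and fell by 2.28 ± 0.25 on the log2 scale (SE, limma adjusted p = 5.99e-04). Myo5a, the motor of this complex, had a change of 0.42 ± 0.24 that did not pass (limma adjusted p = 0.199).

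The remaining genes of that list are named to complete it. Gpnmb, a relative of Pmel, rose by 3.01, the transporter gene Slc45a2 by 1.98, the tetraspanin gene Cd63 by 1.84, the channel gene Trpm1 by 1.83, the ion exchanger gene Slc24a5 by 1.70 and the myosin gene Myo7a by 1.31, all log2 changes past the limma threshold. Oca2, a melanosomal channel, had 54, 18 and 17 reads in the libraries labelled knockout, against 5, 0 and 0 in controls. Its fitted change of 4.24 depends on the pseudocount and was 4.99 without control 1. Mreg rose by 0.48, a call lost in 10 of the other settings. Rab32, Rab38, Syngr1 and Atp7a did not pass, with changes of 0.67, -0.18, 0.33 and 0.14.

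The general machinery of melanosome biogenesis, which most cells use for lysosome-related organelles, was split in direction. Of 20 genes, 4 were higher and 4 lower, with a median change of 0.04, and these shares lie near the 17.7% and 15.9% of all genes. Rabggta, a subunit of Rab geranylgeranyl transferase, rose by 1.23 ± 0.18 and Bloc1s6, a subunit of the BLOC-1 complex, by 0.97 ± 0.26, while Lyst and Snapin fell by 1.29 ± 0.31 and 1.13 ± 0.28 (SE, log2 scale, limma adjusted p = 0.00186, 0.0225, 0.0143 and 0.0175). The call of Bloc1s6 was lost without knockout 2, control 1 or control 3, and that of Snapin without knockout 1, control 2 or control 3. Between 1 and 4 genes were called in each direction over the other settings.

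**Figure D5:**
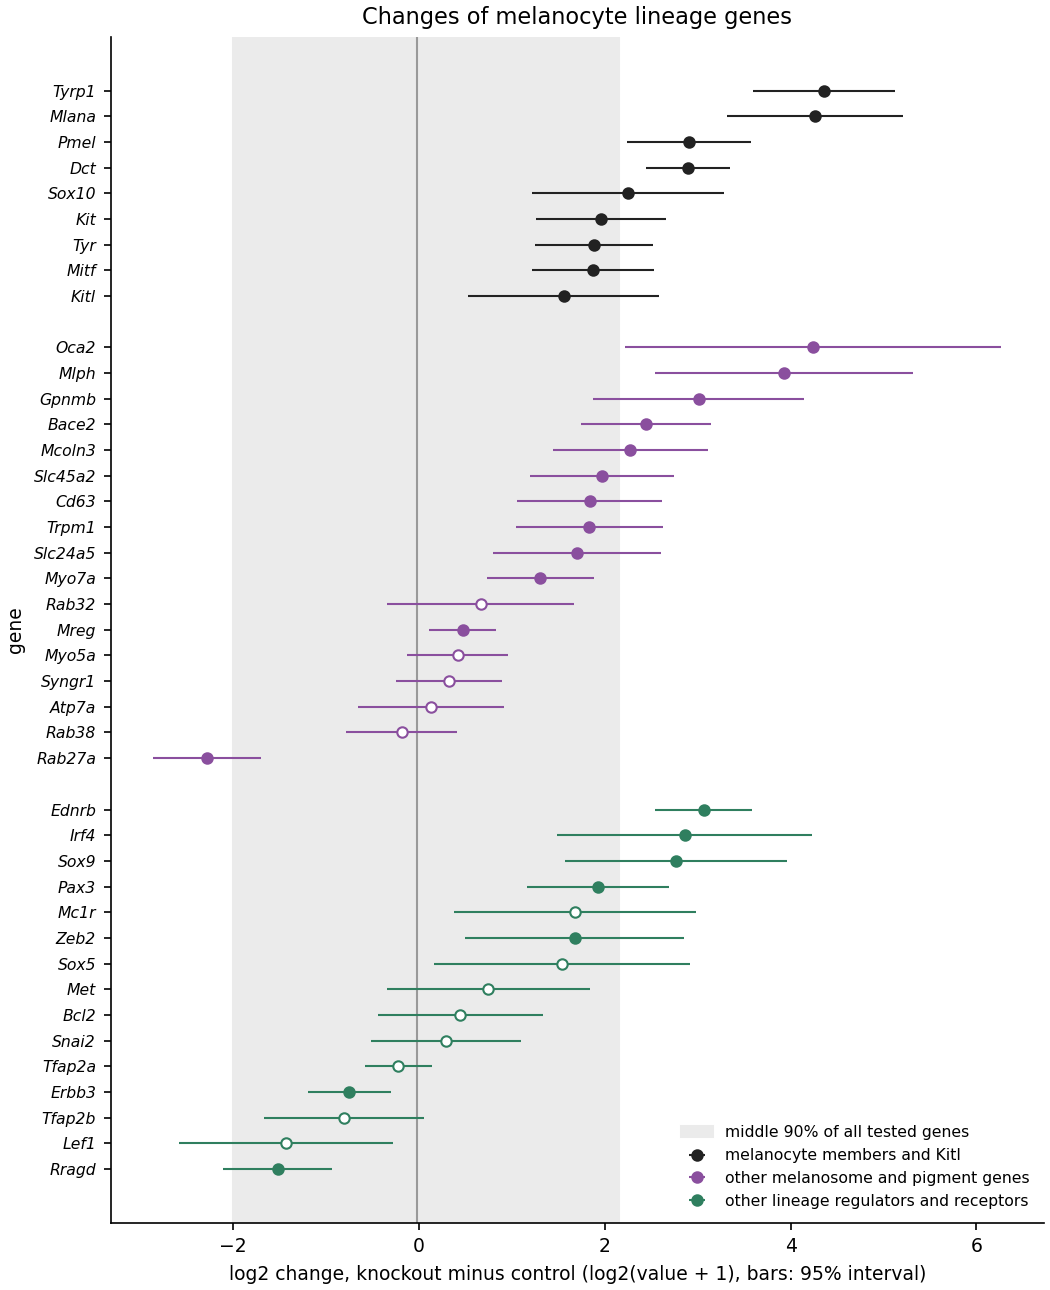
Log2 change, knockout minus control, with 95% interval (x axis) of the 9 members, the other pigment genes and the lineage regulators (y axis). Filled points passed the limma threshold, and the grey band holds the middle 90% of all tested genes, from -2.00 to 2.16. The members lie at 1.56 and above, while Rab27a lies at -2.28.

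Among regulators and receptors of the lineage other than the members, 15 of 19 named were tested, with a median change of 0.75. Of the 15, 5 were higher (33.3%) and 2 lower, beside 17.7% and 15.9% of all tested genes. Ednrb, the endothelin receptor of melanoblasts, had 539, 636 and 478 normalized counts in knockout-labelled libraries, against 78.5, 67.3 and 50.7 in controls, and rose by 3.07 ± 0.23 (SE, limma adjusted p = 1.08e-04). Pax3, an upstream activator of Mitf, rose by 1.93 ± 0.34, and Sox9, which keratinocytes of the follicle also express, by 2.77 ± 0.52, or 3.48 without knockout 1 (SE, limma adjusted p = 0.00392 and 0.00552). Rragd, a GTPase of lysosomal nutrient sensing, fell by 1.52 ± 0.26 (SE, limma adjusted p = 0.00349). The count depends on the fit: with a replicate block of adjacent animal numbers it was 8 higher and 4 lower, and over all other settings 3 to 8 higher and 1 to 4 lower. Of the relatives of Mitf, Tfe3 rose by 0.77 (limma adjusted p = 0.0330, lost in 8 of the 17 other settings) and Tfeb had a change of 0.43 that did not pass.

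Downstream of the receptor, genes of Kit signalling had a median change near 0. Of 22 named genes 20 were tested, Kit among them, and 5 were higher and 2 lower, with a median change of -0.04, beside 17.7% higher and 15.9% lower among all tested genes; 3 to 7 were higher and 2 to 4 lower in the other settings. Pik3r1, the regulatory subunit of PI3-kinase, had 401, 254 and 204 normalized counts in knockout-labelled libraries, against 863, 1213 and 1028 in controls, and fell by 1.90 ± 0.27 (SE, limma adjusted p = 0.00159). The adaptor gene Gab1 fell by 0.83 ± 0.15 and the kinase gene Fyn rose by 1.72 ± 0.29 (SE, limma adjusted p = 0.00475 and 0.00358).

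Other signals that keratinocytes send to melanocytes were set beside Kitl. Of 25 named genes 14 were tested, and 7 were higher, Kitl among them, and none lower, with a median change of 1.25, beside 17.7% and 15.9% of all tested genes; 4 to 9 were higher and 0 or 1 lower in the other settings. Il1a, interleukin-1 alpha, rose by 3.70 ± 0.24, Ptgs2, which makes prostaglandins, by 7.05 ± 0.80 and the ErbB ligand gene Nrg1 by 5.92 ± 0.74 (SE, limma adjusted p = 6.48e-05, 6.12e-04 and 9.34e-04). Edn1, the endothelin that acts on Ednrb, had 31.8, 134 and 25.5 normalized counts in knockout-labelled libraries, against 35.5, 29.2 and 13.9 in controls, a change of 0.95 ± 0.64 that did not pass (limma adjusted p = 0.275). Its value in knockout 2 stood apart. Without knockout 2 the changes of Ptgs2 and Nrg1 were 6.09 and 5.32, and that of Nrg1 was 6.88 without knockout 3.

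Some markers of other cells that share these genes changed, and their part in the changes above was not tested. Mast cells also carry Kit, and of 12 mast cell markers 2 were tested and the others were not analysed here. Hdc had 8.41, 439 and 26.6 normalized counts in knockout-labelled libraries, against 0, 0 and 2.45 in controls, with a limma adjusted p of 0.0229 that was lost without knockout 2, control 1 or control 2. The other, Hpgds, had 715, 1242 and 406 normalized counts in knockout-labelled libraries, against 522, 258 and 377 in controls, a change of 0.94 that did not pass (limma adjusted p = 0.105), and the groups overlapped. Of 13 Schwann cell and neural crest markers, which share Sox10, 6 were tested. Of the 6, 3 were higher and none lower, beside 17.7% and 15.9% of all tested genes. Among the 3 higher were Pmp22, by 3.43 on the log2 scale, and Egr2, by 0.95, the last without a call when control 1 or control 2 was left out. The values found for Schwann markers summed to 2335, 2695 and 2060.3 in the libraries labelled knockout, against 1123, 1380.5 and 1332 in controls.

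Dermal fibroblast markers, of which 9 of 16 were tested, were higher in 5 and lower in 1, beside 17.7% and 15.9% of all tested genes. Their summed counts overlapped between the groups (1756, 2904 and 1296 in the libraries labelled knockout, against 3324, 1948 and 1650.4 in controls). Of these sums, Postn, the 1 lower gene, gave 175.7, 44.2 and 68.7 in the libraries labelled knockout, against 2243, 1215 and 1171 in controls. The overlap of the sums therefore does not describe the other markers. Postn, a matrix protein, fell by 4.16 on the log2 scale, while the collagen genes Col3a1, Col1a2 and Col1a1 rose by 3.81, 1.65 and 3.62, all past the limma threshold. Keratinocyte markers of the interfollicular epidermis, the labelled tissue, were all 15 tested, with a median of -0.06. None was lower and 3 were higher, a share of 20% that lies near the 17.7% of all tested genes. The 3 were the basal keratin gene Krt14 (a rise of 3.21), Sfn (1.21) and Cdh1 (0.69), the cadherin that holds melanocytes to keratinocytes. Hair follicle markers, where most melanocytes of the mouse come to lie, were higher in 3 and lower in 3 of 16, with a median of -0.28. These shares, 18.8% each way, lie near the 17.7% and 15.9% of all tested genes. Tchh and Sox21 fell by 2.88 and 2.65, and the inner root sheath keratin gene Krt73 and the companion layer keratin gene Krt75 rose by 3.33 and 5.31, the last being listed at 0 in controls 1 and 3, where the size depends on the pseudocount. Over the other settings 1 to 6 fibroblast, 2 or 3 keratinocyte and 2 to 4 follicle markers were higher, and 1, 0 to 5 and 2 to 6 were lower.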

How the data were processed

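Bulk RNA-seq of 6 epidermis libraries, 3 labelled knockout and 3 controls, was used as 1 deposited table of 12894 Ensembl genes. Its values are normalized counts made by the authors, a signal whose scale differs by library, as the steps of low values show; the sources used here give neither the normalization method nor the counting and strand settings, so antisense overlap cannot be told apart. TopHat2 2.1.0, Partek 9.0.20.0202 and mm39 are named, with no role, in the submitters' processing notes. TruSeq libraries were made, per the labels' protocols.

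The value of 1 read was recovered from low values as 0.755 to 1.70, which gives an estimated 6458000 to 9119000 reads per library. Of the values up to 20 reads, 80.8% to 83.3% were whole reads within 0.02 of a read, too few for a count model, while all 54 values of the 9 members were whole. Values were tested with limma 3.58.1 in R 4.3.3 (trend, log2(value + 1), which understates the change of low genes). Genes had to exceed 1 in at least 3 libraries, which left 12872, and Benjamini-Hochberg adjusted p under 0.05 was the threshold. Single values were tested by exact permutation in SciPy 1.17.1 under Python 3.11.15. The script was checked on simulated data.

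Symbols (12771 matched, 123 not), chromosomes and exon lengths come from an annotation of GRCm38, another build than mm39, and promoters from RefSeq GRCm38.p6. The titles carry numbers, read here as animal numbers, and libraries with adjacent numbers, 1 from each group, deviated together from their group means (correlations 0.367, 0.228 and 0.362, against -0.281 to -0.072 for other pairs), so they were taken as pairs in an alternative fit. That pairing comes from the data, since the labels do not state it.

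The members and all lists were chosen with earlier results of these data known. Named were all 9 members, in the lists described up to 4 genes with the smallest adjusted p past the threshold, or 2 by highest mean if none did, the 5 nearest genes by distance, Hnrnpu, Xist and Ddx3y. Some genes of the lists are not reported here by name. Other genes were named after their values were seen. Alternatives were other pseudocounts, filters, scalings and limma options, each library left out, the pairing as a block and knockout 1 alone.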

Additional observations from a re-analysis of the deposited data

How the results depend on the processing

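All 8 melanocyte genes stayed higher in the libraries labelled knockout in each of the 17 other settings, with limma adjusted p from 2.67e-05 to 0.0303. Over all genes 4328 were called. This was 2711 with knockout 1 alone against the controls, and 2631 to 4464 with 1 library left out in turn, the lowest counts being without control 1 (2682), control 2 (2663) or control 3 (2631). Fewer libraries entered these fits. Kitl kept its direction everywhere but missed the threshold with equal library totals (1.22, limma adjusted p = 0.101), without the variance trend (1.56, 0.0553) and with knockout 1 alone (2.09, 0.0582). With 1 library left out its log2 change ran from 1.18 to 2.06, past the threshold only without knockout 2 (1.82, 0.0331) and control 1 (2.06, 0.00859). The cause was not tested. With the replicate block of adjacent animal numbers, 5781 genes were called, 8 melanocyte genes remained higher, and Kitl had a limma adjusted p of 0.00343.

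Few reads limit Mlana and Oca2 in the controls, and 3 libraries a group limit every exact test to p = 0.1. Knockout 2 and 3 differ from the other 4 libraries in sex-chromosome transcripts.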

Other observations

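Genes that p53 raises were also measured. As background, p53 activity in keratinocytes of mice is known to raise Kitl and darken the skin, and its part here was not tested. Of 20 such genes, 14 were higher and 1 was lower where the label was knockout, beside 17.7% and 15.9% of all tested genes. Their median log2 change was 1.71, against -0.02 for all genes tested, and 12 to 14 were higher in the other settings. Eda2r, a member of the TNF receptor family, had 929.8, 857 and 573 normalized counts in knockout-labelled libraries, against 19.6, 12.4 and 5.72 in controls, and rose by 5.97 ± 0.41 (SE, limma adjusted p = 8.04e-05). Ccng1, cyclin G1, rose by 2.87 ± 0.21, Sesn2, a stress-induced sestrin, by 2.71 ± 0.24, and the nuclease gene Aen by 1.71 ± 0.20 (SE, limma adjusted p = 1.01e-04, 2.08e-04 and 7.61e-04). Cdkn1a, the cell cycle inhibitor p21, had 8399, 15074 and 18574 normalized counts in knockout-labelled libraries, against 1794, 2798 and 4533 in controls. The 1 gene that fell was Sesn1, by 2.41 ± 0.30 on the log2 scale (SE, limma adjusted p = 9.63e-04).

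Immune markers of the epidermis were lower or did not pass. Of 10 Langerhans and T cell markers 6 were tested, and 3 were lower and none higher, beside 15.9% and 17.7% of all tested genes. Without control 1 or control 2 only 1 was lower, and 4 were without knockout 2. Epcam and Csf1r fell by 1.02 and 1.13 on the log2 scale and Cd3e fell by 3.06, all past the limma threshold. Cd3e, a subunit of the T cell receptor complex, had 0.935, 3.403 and 2.22 normalized counts in knockout-labelled libraries, against 22.7, 41.6 and 14.7 in controls. Of 7 Merkel cell and 8 skeletal muscle markers none was analysed here, and of 8 endothelial markers Pecam1 was, with 6.54, 59.5 and 11.1 normalized counts in knockout-labelled libraries, against 3.78, 2.66 and 5.72 in controls (log2 change 1.85 ± 0.87, SE, limma adjusted p = 0.130).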
